A study of Homo sapiens with 12 samples.

Results

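The genes described here are 9 enzymes of the pentose phosphate pathway and of cytosolic NADPH supply, and the open chromatin is that of MIAPaCa2 cells. In the oxidative arm of the pathway, PGLS hydrolyses the sugar lactone and PGD oxidises 6-phosphogluconate, which yields NADPH and ribulose 5-phosphate. In the non-oxidative arm, RPIA and RPE interconvert pentose phosphates, and the transketolase TKT and the transaldolase TALDO1 exchange carbon units between these sugars and the intermediates of glycolysis. TKTL1 is a transketolase-like paralog of TKT, and ME1 (malic enzyme) and IDH1 (isocitrate dehydrogenase) make NADPH in the cytosol outside the pathway. NADPH serves fatty acid synthesis and the reduction of glutathione, and lactate dehydrogenase, the enzyme that oxamate inhibits, regenerates NAD+ for glycolysis.

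MIAPaCa2 is an established pancreatic ductal adenocarcinoma line, and ATAC-seq marks open chromatin by the insertion of sequencing adapters by the transposase Tn5. Parental cells and oxamate-resistant cells, a polyclonal population selected by continuous culture in sodium oxamate, were each profiled untreated (vehicle) and after a brief oxamate treatment, with 3 libraries in each of the 4 groups and 250000 nuclei per library. The labels do not say whether the libraries of a group came from separate cultures, so the p-values measure the spread between these libraries, which may be technical. All 4 groups derive from 1 line, and both resistant groups come from the selected population. The data were lists of broad peaks called separately in each library, on hg38, and a gene was described by the peaks overlapping its RefSeq span extended by 5 kb on each side. The 9 genes were chosen by their role, out of 59098 genes on chromosomes 1 to 22 and X, and their windows held 51 of 178040 regions, where a region is a run of overlapping peaks merged over the 12 lists.

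The lists held 46401 to 63259 peaks. They covered 23.7 ± 2.64 Mb (SD, n = 3) in untreated parental cells, 17.2 ± 2.97 Mb in treated parental cells, 28.9 ± 4.28 Mb in untreated resistant cells and 26.6 ± 4.77 Mb in treated resistant cells. Read counts were not among the files used, but the background pileup gave a relative depth, with the shallowest library at 1, of 1.55 ± 0.22 in untreated and 2.27 ± 0.559 in treated parental cells, and of 1.43 ± 0.423 in untreated and 1.08 ± 0.0688 in treated resistant cells (SD, n = 3). Depth was thus highest in treated parental cells, the group with the fewest covered bases, and the untreated groups overlapped in depth. The smallest peak width, which stands for the mean fragment length, was 67 to 87 bp in the parental and 94 to 124 bp in the resistant libraries. The median peak width was 318 to 428 bp in the resistant lists. In the parental lists it was 289, 298 and 226 bp untreated and 206, 209 and 230 bp treated (replicates 1 to 3). Both widths thus moved with the phenotype and depth with the group. Treated parental replicates 1 and 2 were also narrower in both widths than every untreated parental list. The part of widths and depth in the differences below was not tested. As a check of the cell line, KRT8, KRT18, KRT19 and VIM held peaks in 12 of 12 libraries, and CDKN2A, which is deleted in this line, was listed at 0 in 12.

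Most members held open chromatin at the start of the gene. In ME1 and TKT another region called in 12 libraries reached a higher fold than the start. A peak lay in the promoter window, from 250 bp before to 50 bp after a RefSeq start, in 12 of 12 libraries for PGD, PGLS, RPIA, RPE, TKT, TALDO1, ME1 and IDH1. TKTL1 had no such peak in 12 libraries at either of its annotated starts. Of all 27195 genes with a promoter in the table, 38.7% had a peak there in 12 libraries and 49% in none, and of the 15812 protein-coding genes 54.4% and 32.6%. The promoter sequences of 5 members, taken from RefSeq (GRCh38.p14) and printed 5′ to 3′ along the gene's strand, show the letters under these peaks. RPIA had the highest start peak of the set by fold, PGD is the NADPH-forming dehydrogenase of the pathway, ME1 and IDH1 are the NADPH enzymes outside the pathway, and TKTL1 is the member with no peak at its start. Capitals mark any match, on either strand, to the 4 motifs spelled out after the sequences, and neighbouring or overlapping matches run together.
PGD, chr1:10398814-10399113, plus strand: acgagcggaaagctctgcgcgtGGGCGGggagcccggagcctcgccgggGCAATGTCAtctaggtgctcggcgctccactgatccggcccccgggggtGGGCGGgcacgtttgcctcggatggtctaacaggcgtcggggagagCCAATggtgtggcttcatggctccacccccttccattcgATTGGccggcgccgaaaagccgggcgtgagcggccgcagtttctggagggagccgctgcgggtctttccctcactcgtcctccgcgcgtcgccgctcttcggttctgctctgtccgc
RPIA, chr2:88691423-88691722, plus strand: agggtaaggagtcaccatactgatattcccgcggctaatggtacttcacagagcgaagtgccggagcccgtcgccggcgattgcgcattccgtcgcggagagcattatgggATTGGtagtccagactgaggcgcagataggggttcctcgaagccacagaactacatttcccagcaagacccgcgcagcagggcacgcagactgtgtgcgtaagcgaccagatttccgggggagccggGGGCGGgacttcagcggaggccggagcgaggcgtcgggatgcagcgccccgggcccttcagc
ME1, chr6:83431002-83431301, minus strand: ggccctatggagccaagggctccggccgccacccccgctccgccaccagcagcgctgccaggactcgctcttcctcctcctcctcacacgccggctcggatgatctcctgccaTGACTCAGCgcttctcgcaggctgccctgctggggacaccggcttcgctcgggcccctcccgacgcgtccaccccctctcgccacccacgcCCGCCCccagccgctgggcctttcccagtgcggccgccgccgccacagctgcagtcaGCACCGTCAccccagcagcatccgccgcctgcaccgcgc
IDH1, chr2:208255022-208255321, minus strand: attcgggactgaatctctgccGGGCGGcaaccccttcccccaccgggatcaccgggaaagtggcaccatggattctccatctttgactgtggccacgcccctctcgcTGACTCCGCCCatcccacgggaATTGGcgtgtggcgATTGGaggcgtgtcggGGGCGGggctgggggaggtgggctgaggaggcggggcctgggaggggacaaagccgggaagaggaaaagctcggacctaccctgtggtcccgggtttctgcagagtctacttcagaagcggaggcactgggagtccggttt
TKTL1, chrX:154295545-154295844, plus strand: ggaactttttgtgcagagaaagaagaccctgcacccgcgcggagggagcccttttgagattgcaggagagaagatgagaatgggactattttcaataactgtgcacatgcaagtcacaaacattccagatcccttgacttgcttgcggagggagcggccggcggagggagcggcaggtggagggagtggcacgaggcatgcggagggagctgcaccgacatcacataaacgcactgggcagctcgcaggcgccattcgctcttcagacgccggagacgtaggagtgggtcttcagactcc

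TGACNNNGC, the core of the antioxidant response element, was found in 4 of the 11 promoter windows of the members and in 13.4% of all 34961 promoters. The ME1 window held it as TGACTCAGC at -137 from the start and again on the other strand at 11, the IDH1 window at -143, the PGD window at -201 on the other strand, and the RPE window at -151. Each of these letters lay under a peak in 12 of 12 libraries. The GC box GGGCGG was in 9 of the 11 windows and in 45% of all promoters. The CCAAT box was in 6 windows and in 34.6% of all promoters, and the E-box CACGTG was in 0 windows and in 7.27% of all promoters. In RPE and TKT, GC boxes overlapped each other by 1 base, and in IDH1 a GC box on the other strand overlapped TGACTCCGC. Neither TKTL1 window held any of the 4 motifs. The first TKTL1 window had 18 CpG and the second 8, against 17 and 20 for the IDH1 windows, 24 for RPE, 27 for PGLS, 29 for RPIA, 30 for ME1, 31 for TKT, 35 for PGD and 44 for TALDO1, and a median of 14 over all promoters. The count in the first TKTL1 window thus lay between those of the IDH1 windows, which held peaks in 12 libraries. A match to these letters is a description of the sequence and was not tested as a binding site.

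The height of the start peak differed widely among the members. It is given as the fold that the authors' caller wrote (signal over local background) and as the rank of the peak within its own list. RPIA was highest, with a fold of 8.68 to 12.2 and a place in the top 0.614% to 2.02% of the list in the 12 libraries. RPE followed with a fold of 6.37 to 10.4, PGD with 5.9 to 9.79 and PGLS with 4.72 to 8.24, and these ranges overlap. TALDO1 (4.78 to 6.27) and IDH1 (4.71 to 6.32) were alike in range. The lowest were ME1, at 3.49 to 5.94 and in the top 32.1% to 78.3% of the list, and TKT, at 3.43 to 5.27 in the 10 libraries with a peak over the start base itself. The start peaks of PGLS, RPIA and IDH1 also covered the start of a lncRNA on the other strand (PGLS-DT, LOC102724805 and IDH1-AS1), and ATAC-seq cannot assign a shared peak to one of them.

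The width of the start peak varied between libraries. The TKT start peak reached 397, 538 and 558 bp into the gene in the untreated parental libraries and 299 bp in 1 treated parental library. In the other treated parental libraries, replicates 1 and 2, no peak covered the start base of TKT, although peaks lay elsewhere in its start region and in the promoter window. In the resistant cells it reached 1307, 556 and 1294 bp untreated and 1221, 488 and 1424 bp treated. Thus in 4 of 6 resistant libraries 1 unbroken peak extended at least 1221 bp into the gene, and the longest in the parental libraries ended at 558 bp. Peaks were wider in the resistant lists as a whole, as their median widths show. By the same measure, treated parental replicates 1 and 2 were narrower as a whole than every untreated parental list. For PGD the peak was 551, 1275 and 943 bp wide in treated parental cells and 1190 to 1404 bp in the 9 other libraries. The narrowest of these, in treated parental replicate 1, ended 51 bp into the gene. TALDO1, at 698, 698 and 1329 bp in treated parental cells, was narrower there than in untreated parental cells, at 1721, 1887 and 1590 bp. In the resistant cells its start peak was 1781, 1803 and 2206 bp wide untreated and 2410, 901 and 1650 bp treated, so that 1 treated library fell within the range of treated parental cells. The ME1 start peak was 1164, 962 and 1198 bp wide in untreated and 698, 431 and 1164 bp in treated parental cells, and 1009 to 1561 bp in the resistant libraries. The start peak of IDH1 was 1316 to 1700 bp wide in 11 libraries and was broken into pieces of 535 and 466 bp in treated parental replicate 1.

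**Figure D1:**
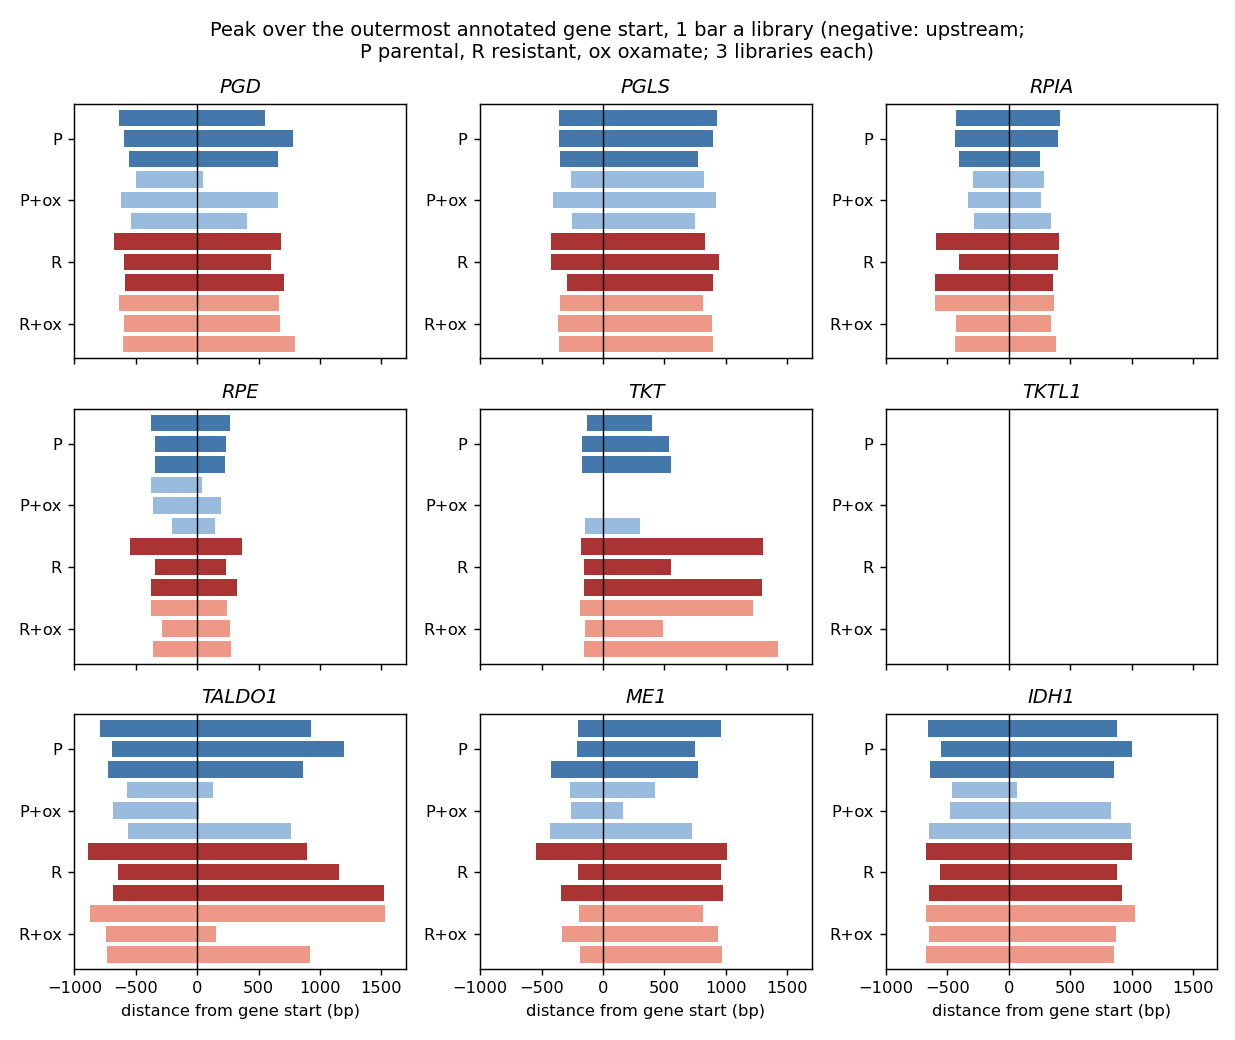
Extent of the peak over the outermost annotated start of each gene, 1 horizontal bar a library, with the distance from the start in bp on the x axis (negative is upstream) and the 4 groups from top to bottom. TKTL1 has no bar in any library, and TKT has bars reaching 1221 to 1424 bp into the gene in 4 resistant libraries and none in 2 treated parental libraries. Every gene with bars has its shortest bar among the treated parental libraries.

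Away from the starts, few regions recurred. Of the 51 regions of the members, 12 were called in 12 libraries (23.5%, against 13.6% of all regions), 27 in 1 library (52.9%, against 59.5%) and 12 in 2 to 11. Of the 27 single-library regions, the parental lists held 7 without and 10 with oxamate, and the resistant lists 5 and 5. PGD, RPE and IDH1 had no region besides the start that more than 1 library held. ME1, the longest gene of the set, held a region near its 3′ end (chr6:83215219-83215557) in 12 libraries and another 13116 bp into the gene (chr6:83417537-83418333) in 10. The latter was missing only from 2 of the 3 treated parental libraries. At the ME1 region near the 3′ end the fold was 4.5 to 10.6, against 3.49 to 5.94 in its start region. RPIA held a region late in the gene (chr2:88739827-88740456) in 11 libraries, the missing one being treated parental replicate 3. In parental cells it covered 101, 156 and 79 bp untreated and 77, 113 and 0 bp treated (replicates 1 to 3), and in resistant cells 567, 248 and 331 bp untreated and 327, 96 and 153 bp treated.

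TALDO1 had constant regions at chr11:762351-763028 in the gene and at chr11:765073-765772 past its end, where the window also holds GATD1. A further TALDO1 region (chr11:755279-756283) was called in 3 untreated and 2 treated parental libraries and in 3 untreated and 1 treated resistant libraries. TKT had a constant region past its end (chr3:53219822-53220670). The fold there was 4.74 to 7.92, against 3.43 to 5.27 in the TKT start region. Inside TKT, chr3:53236048-53236528 was called in 2 untreated and 0 treated parental libraries and in 1 untreated and 3 treated resistant libraries. It was the only region of the members held by 3 of 3 libraries of one group and 0 of 3 of another, here treated resistant and treated parental cells. That is 1 of 18 member regions held by at least 3 of these 6 libraries, and 5.82% of all 43089 such regions were gained in the same way (1.79% were lost). For the other pairs of groups 0 member regions were all or none, beside 0.483% of all regions gained and 3.81% lost with oxamate in parental cells, 0.511% and 0.59% with oxamate in resistant cells, and 1.65% and 1.04% between the untreated resistant and parental cells. Fisher's exact test over the 9507 regions called in 5 to 7 libraries did not call the TKT region different. By phenotype it was in 4 of 6 against 2 of 6 libraries (exact p = 0.567, adjusted p = 0.982), and by treatment in 3 of 6 against 3 of 6 (exact p = 1). With so few libraries this does not show equal presence. In that test 0% of all regions were called in either comparison.

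The recurring peaks of TKTL1 lay inside the gene. Its regions at chrX:154308288-154308728 and chrX:154317375-154317965 were each called in 3 untreated and 1 treated parental libraries and in 2 untreated and 3 treated resistant libraries, although not in the same ones. The first lay 12713 bp from the outermost start and the second 21875 bp. The authors' fold at the first was 3.28 to 6.28 and at the second 3.33 to 5.66 where a peak was called. Both were thus low peaks, with a range like that of the start peaks of ME1 (3.49 to 5.94) and TKT (3.43 to 5.27). In PGLS, a region at the 3′ end of the gene (chr19:17520597-17521321) was called in 2 untreated and 1 treated resistant library and in 0 parental libraries. This PGLS region was chosen after its values were seen and was in too few libraries for the presence test. The share of all regions with such a split is not given here.

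**Figure D2:**
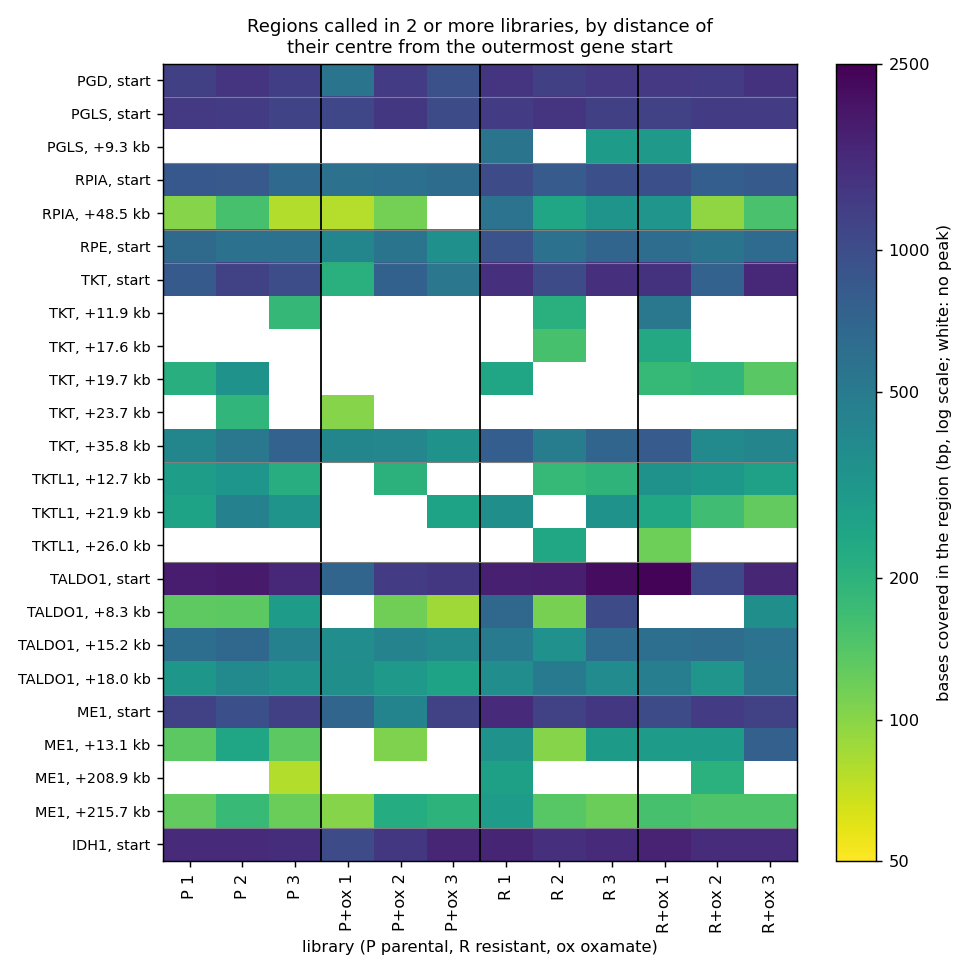
Each row is a region called in 2 or more libraries, named by its gene and the distance of its centre from the outermost gene start in kb, and each column is a library; the colour gives the bases covered in the region on a log scale and white means no peak. The start rows of 8 genes are filled in 12 libraries, and the TKT row at +19.7 kb and the TKTL1 rows at +12.7 and +21.9 kb have most of their gaps in treated parental and untreated resistant libraries.

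Bases covered by peaks over the whole window gave 1 value per gene and library. In resistant against parental cells, taken over both treatments, RPIA, TKT and ME1 were higher. Limma on log2(bases + 200) called these 3 of the 9 genes, and 34% of all 29023 genes tested were called higher, so the share among the members was close to that of all genes. Lower calls made up 0 of the members and 0.317% of all genes. The differences were 0.48 ± 0.14 (SE) on the log2 scale for RPIA (adjusted p = 0.0236), 0.63 ± 0.19 for TKT (adjusted p = 0.0267) and 0.51 ± 0.16 for ME1 (adjusted p = 0.0336). All 9 members had a positive difference, with a median of 0.27, below the median of 0.37 over all genes. PGLS, at 0.27 ± 0.10, had an adjusted p of 0.0521, and the other 5 genes lay between 0.14 (IDH1) and 0.37 (TALDO1).

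In parental cells RPIA covered 1050, 996 and 736 bp untreated and 656, 1031 and 627 bp treated, and in resistant cells 1574, 1614 and 1293 bp untreated and 1294, 873 and 979 bp treated. Without oxamate the resistant libraries lay above all parental ones, and with oxamate they overlapped. Of the 1614 bp in untreated resistant replicate 2, the start peak held 808 bp and the region late in the gene 248 bp. The rest lay in regions of 230 and 328 bp that only this library held, the latter past the gene end. The highest untreated parental value, 1050 bp, also held a region of 100 bp found in that library alone. In parental cells ME1 covered 1524, 1391 and 1532 bp untreated and 883, 759 and 1580 bp treated, and in resistant cells 2459, 1409 and 1737 bp untreated and 1684, 1918 and 2052 bp treated. Its groups overlapped without oxamate and not with it. In parental cells TKT covered 1456, 2235 and 1897 bp untreated and 877, 1154 and 874 bp treated, and in resistant cells 2509, 2020 and 2145 bp untreated and 3367, 1317 and 2140 bp treated. The treated parental libraries were the lowest of all 12 for TKT, and the treated resistant ones were the most spread, at 2275 ± 1030 bp (SD, n = 3).

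**Figure D3:**
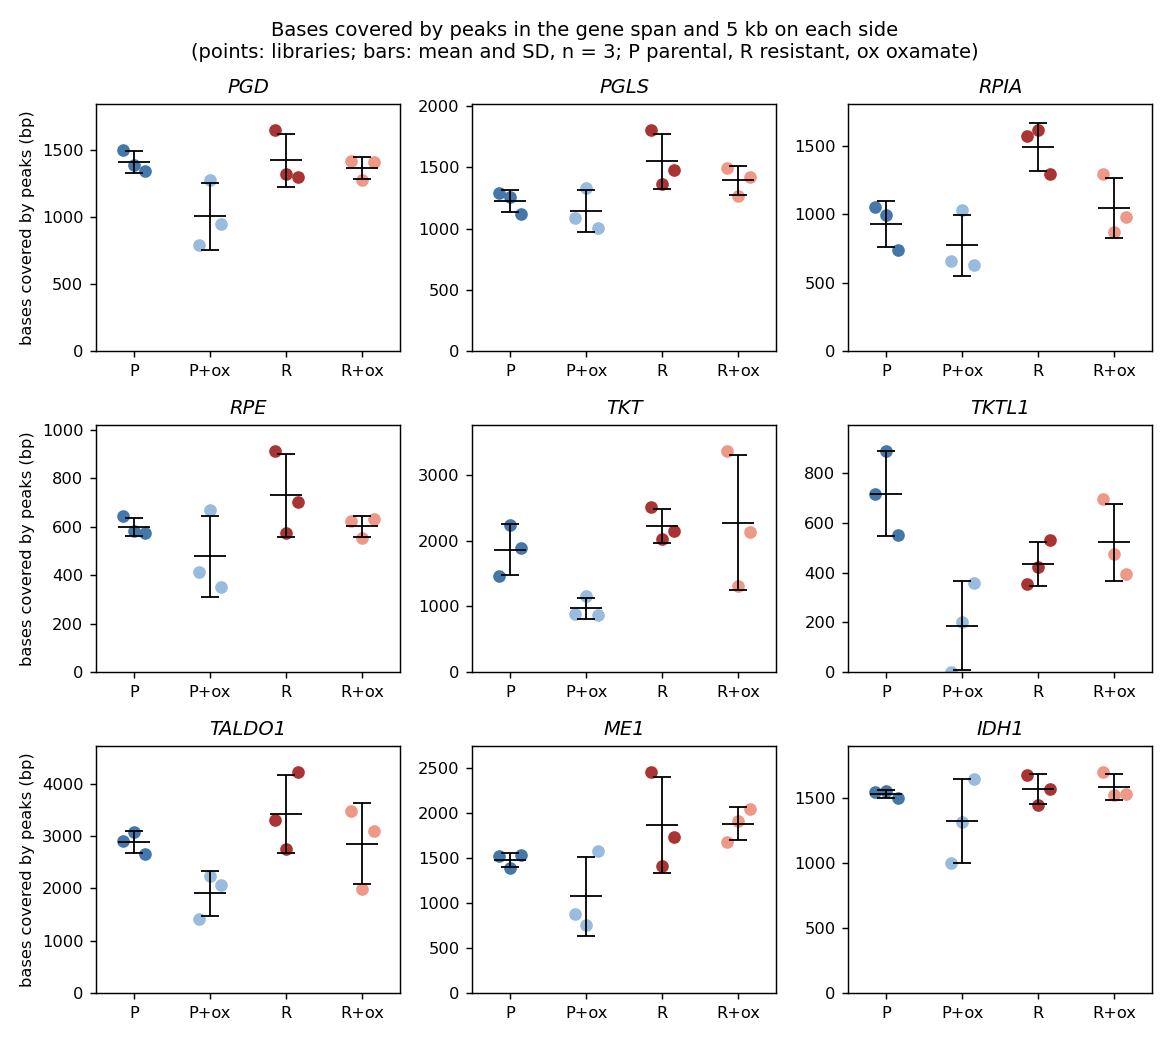
Bases covered by peaks in the span of each gene and 5 kb on each side (y axis, bp, from 0), with 1 point a library and the mean and SD of 3 libraries in black. Treated parental cells have the lowest mean for all 9 genes, from 187 bp for TKTL1 to 1908 bp for TALDO1, and RPIA is highest in untreated resistant cells at 1494 ± 175 bp.

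When each list was scaled to the same total of covered bases, 0 of the 9 members was called by limma between resistant and parental cells, with 1 (IDH1, lower) at an unadjusted p under 0.05, beside 5.18% of all genes called higher and 1.78% lower. The scaled differences were 0.11 for RPIA (adjusted p = 0.624), 0.22 for TKT (adjusted p = 0.325) and 0.12 for ME1 (adjusted p = 0.682), and PGD, PGLS, RPE, TALDO1 and IDH1 turned negative, between -0.26 and -0.05. An exact permutation test of covered bases within treatments also called 0 members, with 4 (PGLS, RPIA, TKT and ME1) at an unadjusted exact p of 0.01 to 0.025, beside 11.5% of all genes called higher and 0.0586% lower by that test. Leaving out treated parental replicate 1, untreated parental replicate 3, untreated resistant replicate 1 or treated resistant replicate 1 left 0 of these 3 calls, and the adjusted p without treated parental replicate 1 was 0.0522 for RPIA, 0.058 for TKT and 0.0746 for ME1. In the gene span alone RPIA was not called, and from peaks at a -log10 q of 3 or more the ME1 difference was 1.05.

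With oxamate in parental cells, TKTL1 lost covered bases. It covered 717, 890 and 550 bp in untreated and 0, 201 and 360 bp in treated parental cells, and these groups did not overlap. Limma gave a log2 difference of -1.35 ± 0.34 (adjusted p = 0.0365), which made TKTL1 the 1 member of 9 called, with 7.87% of all genes called lower and 0.0551% higher. All 9 members had a negative difference, with a median of -0.44 against -0.38 over all genes. TKT (-0.81 ± 0.26, adjusted p = 0.0716), TALDO1 (-0.57 ± 0.22, adjusted p = 0.111), ME1 (-0.45 ± 0.23, adjusted p = 0.19) and PGD (-0.44 ± 0.16, adjusted p = 0.0893) were the next, and the groups did not overlap for TKT, TALDO1 and PGD and did for ME1. Treated parental libraries lay wholly below untreated ones in 34.1% of all genes. PGLS was the least moved, at -0.09 ± 0.14. Scaled to equal totals, TKTL1 stood at -1.23 ± 0.36 with an adjusted p of 0.103, TKT at -0.41 and PGD at -0.03, and 0 members were called, with 2 (TKTL1, and PGLS in the other direction) at an unadjusted p under 0.05 and 1.52% of all genes called lower and 0.158% higher. Without treated parental replicate 1, the list with the fewest peaks, TKTL1 stood at -0.94 with an adjusted p of 0.0887, and the call was also lost without untreated parental replicate 1 or 2, untreated resistant replicate 3 or treated resistant replicate 3.

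With oxamate in resistant cells, 0 of 9 members were called by limma, and 0% of all genes. RPIA, at -0.45 ± 0.20, was the 1 member with an unadjusted p under 0.05. TKTL1 covered 356, 422 and 530 bp in untreated and 696, 477 and 393 bp in treated resistant cells, and these overlapped. The difference between the oxamate responses of resistant and parental cells was 1.52 ± 0.47 for TKTL1, with an unadjusted p of 0.0079 and an adjusted p of 0.27, and 0 members were called in this comparison (0.0207% of all genes were called higher, and 0.0103% after scaling). The loss of TKTL1 bases in parental cells was thus not shown to differ from the response of resistant cells.

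Between untreated resistant and untreated parental cells, 0 members were called by limma (0.134% of all genes were called higher and 0.00345% lower, and after scaling 0.0586% and 0.00689%), with RPIA, at 0.59 ± 0.20, at an unadjusted p of 0.011. The groups did not overlap for RPIA and PGLS, which were higher in resistant cells as 18.5% of all genes were, and for TKTL1, which was lower as 0.982% of all genes were. PGLS covered 1292, 1256 and 1121 bp in untreated parental and 1803, 1367 and 1476 bp in untreated resistant cells. The TKTL1 difference was -0.52 ± 0.34 with an adjusted p of 0.549.

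Under oxamate, limma called 3 of the 9 members, TKT, TKTL1 and ME1, higher in resistant than in parental cells. This share was close to that of all genes. The log2 differences were 1.01 ± 0.26 for TKT (adjusted p = 0.0169), 1.00 ± 0.34 for TKTL1 (adjusted p = 0.0399) and 0.76 ± 0.23 for ME1 (adjusted p = 0.0287), and 34.3% of all genes were called higher and 0.382% lower. The groups did not overlap for these 3 genes, as for 49.1% of all genes. The median over the members was 0.40, below that over all genes, at 0.53. This comparison shares the treated parental libraries with the oxamate comparison in parental cells, so the low TKT and TKTL1 values there enter both. Scaled to equal totals, TKT stood at 0.46 (adjusted p = 0.159), TKTL1 at 0.77 (adjusted p = 0.187) and ME1 at 0.22 (adjusted p = 0.567), and PGD, PGLS, RPIA, RPE, TALDO1 and IDH1 turned negative. Then 0 members were called, with 2 (TKT and TKTL1) at an unadjusted p under 0.05, beside 6.6% of all genes called higher and 1.88% lower. Leaving out treated parental replicate 1, treated resistant replicate 1 or treated resistant replicate 3 also left 0 calls, and from peaks at a -log10 q of 3 or more the difference was 1.57 for TKT and 1.79 for ME1.

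**Figure D4:**
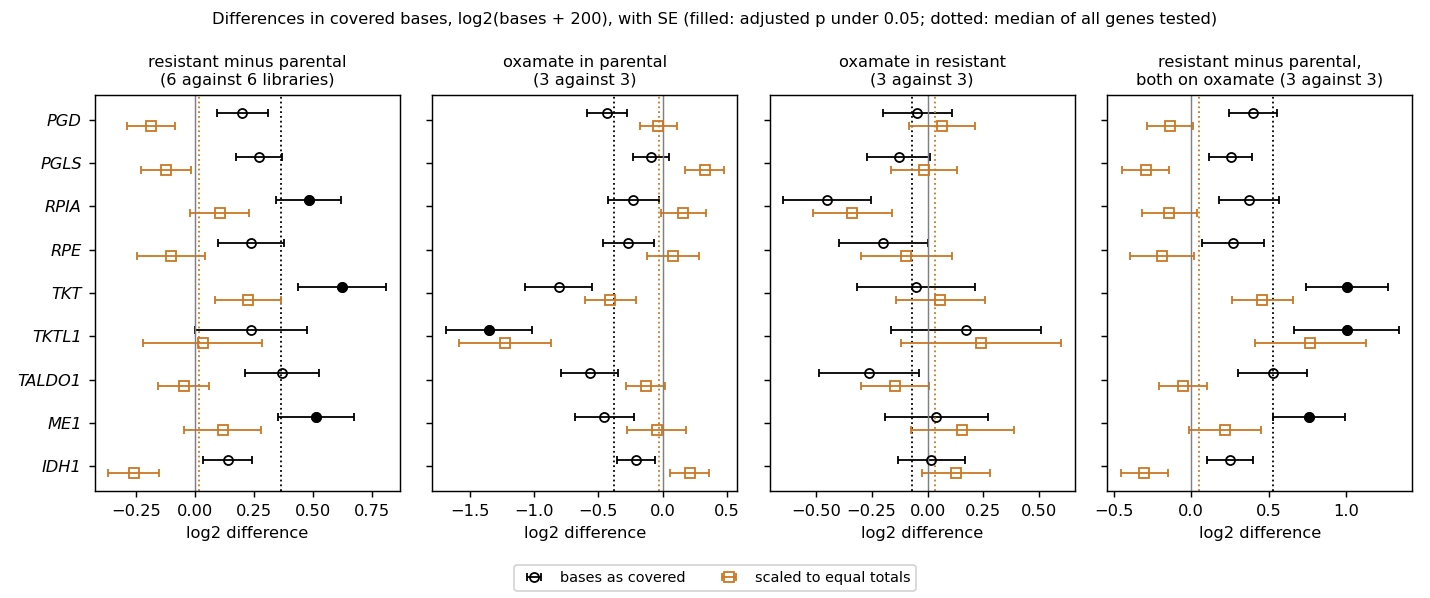
Log2 differences in covered bases with their SE for 4 comparisons, as covered (circles) and after scaling every list to the same total (squares); filled symbols passed an adjusted p of 0.05 and dotted lines give the median over all 29023 genes tested. The circles follow the shift of all genes, most squares lie near 0, no square is filled, and the squares of TKTL1 stay at -1.23 for oxamate in parental cells and 0.77 between treated resistant and treated parental cells.

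Peak height was compared in the 12 member regions called in 12 libraries, among 24148 such regions, as the authors' fold on the log2 scale centred on the median of each list. The RPIA start region (chr2:88691073-88692088) was the 1 member region called, and it was lower in resistant cells. In parental cells its fold was 8.91, 10.3 and 10.8 untreated and 11.6, 12.2 and 8.97 treated, and in resistant cells 8.68, 10.2 and 9.54 untreated and 9.09, 10.4 and 9.89 treated. These uncentred values overlap between all groups. The centred difference was -0.31 ± 0.09 over both treatments (limma, adjusted p = 0.0243, with 14.3% of all regions called lower and 6.25% higher) and -0.51 ± 0.13 under oxamate (adjusted p = 0.0144, with 12% lower and 4.13% higher). The -log10 q of the same peak was 26.9 to 47.3 in the parental and 45.1 to 68.3 in the resistant libraries, so it was mostly higher where the fold was lower. On a centred -log10 q scale the difference was -0.01 (adjusted p = 0.963), and with quantile normalization -0.22 (adjusted p = 0.0753). Under oxamate the -log10 q difference was -0.30 (adjusted p = 0.252). Without treated parental replicate 1 the fold difference had an adjusted p of 0.0521, and 0.051 under oxamate.

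The 3 TALDO1 regions lay between -0.24 and -0.18 in resistant against parental cells, with adjusted p values of 0.0675 to 0.214, and both ME1 regions lay above 0, at 0.17 ± 0.09 over the start and 0.24 ± 0.11 near the 3′ end (adjusted p = 0.194 and 0.122). The TKT start region, whose peak was long in 4 resistant libraries, had a difference in height of -0.05 ± 0.10 (adjusted p = 0.735). With oxamate 0 member regions were called in parental cells, with 1 (RPIA, 0.40 ± 0.13, adjusted p = 0.168) at an unadjusted p under 0.05, and 0 in resistant cells, with 0 at an unadjusted p under 0.05. Of all regions 0.00828% were called higher with oxamate in parental cells and 0% in resistant cells. Between the untreated groups, and for the difference between the oxamate responses, limma also called 0 member regions, with 0 and 1 (RPIA) at an unadjusted p under 0.05. Of all regions 0.186% were called higher and 0.323% lower between the untreated groups, and 0% for the difference between the responses.

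Of 17 other genes of the pathway and of NADPH supply, 15 could be tested for covered bases, and TKTL2 and PRPS1L1 were listed at 0 in every library. In resistant against parental cells 6 of 15 were higher, H6PD, NADK2, ME3, IDH2, PRPS2 and PRPS1, and 0 lower, a share near the 34% of all genes called higher. IDH2, the mitochondrial NADP-dependent isocitrate dehydrogenase, had a difference of 0.87 ± 0.19 (adjusted p = 0.00872) and was the 1 of these genes called after scaling, at 0.51 ± 0.14 (adjusted p = 0.0406). That is 1 of 15, near the 5.18% of all genes called higher after scaling (1.78% were lower). The phosphoribosyl pyrophosphate synthetase PRPS2, which draws on ribose 5-phosphate, was higher by 0.78 ± 0.14 (adjusted p = 0.00422) and lower with oxamate in parental cells, at -0.84 ± 0.19 (adjusted p = 0.0311), the 1 gene of 15 called there, beside 7.87% of all genes called lower. After scaling that difference was -0.44 (adjusted p = 0.269). Under oxamate 7 of 15 were higher in resistant cells, NADK, H6PD, RBKS, NADK2, ME3, IDH2 and PRPS2, beside 34.3% of all genes. After scaling limma called 0 of these 15 genes there, with 3 (IDH2, PRPS2 and DERA) at an unadjusted p under 0.05 and an adjusted p of 0.0832 for IDH2 and 0.129 for PRPS2. Of all genes, 6.6% were then called higher and 1.88% lower. In fold, RPEL1, PRPS1, RBKS and SHPK each had a region that was lower in resistant cells, and ME3, a mitochondrial malic enzyme, had 1 that was higher, at 0.58 ± 0.16 (adjusted p = 0.0159). These are 4 and 1 of 24 regions tested, near the 14.3% of all regions called lower and the 6.25% called higher. The PRPS1 start was lower by fold, at -0.62 ± 0.15 (adjusted p = 0.00776), and higher in covered bases, at 0.40 ± 0.14 (adjusted p = 0.0412), opposite directions as at RPIA. RPEL1 is a near copy of RPE, and reads that align to more than 1 place were removed by the authors, so both are uncertain where their sequences are shared.

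For the 3 members called by phenotype, the genes with the most similar covered bases over the 12 libraries were sought by Pearson's r on the log2 scale, as a description. RPIA was nearest to GLUD1 (r = 0.962), ANKHD1-DT and TTYH2, against a median r of 0.604 with all genes. TKT was nearest to RASAL1 (r = 0.973), TTC7B and AIRE, against a median of 0.674, and ME1 to EI24 (r = 0.968), SLAIN1 and MIR3665, against 0.547. Depth and total covered bases differed between the 12 libraries, and their part in these values was not tested.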

How the data were processed

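Open chromatin was measured by ATAC-seq in 12 libraries of MIAPaCa2 cells. The authors aligned reads with Bowtie2 (version 2.1.0, per the labels, build hg38), discarded reads from mitochondria, duplicates and reads without a unique place, and ran MACS2 on fragments (BAMPE) in each library alone (version not given in the sources used here). The deposited lists give positions, the fold over local background (a linear ratio), -log10 p and -log10 q, and a deposited score derived from -log10 q. The smallest deposited -log10 q was 1. Counts of reads were not among the files used, so the study's test of reads in peaks was replaced by those below. Absolute depth is unknown, no counting interval was given, and relative depth was recovered from fold and -log10 p at the background.

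The peaks used lay on chromosomes 1 to 22 and X (0.892% left out). Bases covered by peaks per gene (span plus 5 kb on each side) were taken as log2(bases + 200) for genes with a mean of at least 100 bp, and fitted with limma (version 3.58.1, R 4.3.3, trend) with 4 group means over 12 libraries and 6 contrasts. The fold, log2 and centred on each list's median, was fitted the same way over regions in 12 libraries. A fold change on the log2(bases + 200) scale understates the change of low genes. P-values were adjusted by Benjamini-Hochberg over all genes or regions, called at 0.05. Presence was compared by two-sided Fisher's exact test, and two-sided exact permutation within treatments (smallest p 0.005; 0.1 for 3 against 3) was an alternative. On simulated data for resistant against parental cells, the fit of covered bases recovered 48% of log2 changes of 1 and 9% of 0.5 over 29023 genes, and that of fold 100% and 67% over 24148 regions. Few features were changed in that simulation, whereas 34% of genes were called higher in covered bases here. The adjustment depends on that share, so these rates do not give the sensitivity of the real comparison.

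All members were named. Their regions were named when over the start, in 6 or more libraries, or all or none between groups; the PGLS region in 3 resistant libraries was chosen after its values were seen. Members and gene lists were chosen with earlier results of these data known. Alternatives changed the peaks used, scaling, pseudocount, filter, window, genes, test, replicate block and libraries. RefSeq tables (GRCh38.p14) gave spans, starts and promoter sequences; they hold no exons, so exon and intron were not assigned.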

Additional observations from a re-analysis of the deposited data

How the results depend on the processing

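Counts of members called kept within 1.5 times under the alternatives not given here. Values of called members kept their direction. With each value under each alternative taken as 1 case, 117 cases kept and 78 lost the call. Some members that were not called turned sign on scaling, such as PGLS (0.27 to -0.12) over both treatments and RPIA (0.37 to -0.14) between treated resistant and treated parental cells. Covered bases, resistant against parental cells (3 called): 0 when scaled to equal totals, 0 by the exact permutation test, and 0 to 5 leaving out 1 library. Oxamate in parental cells (1 called): 3 with -log10 q of at least 3, 2 with the same number of top peaks per list, 0 when scaled, 0 with a pseudocount of 50 bp, 0 with no filter, 0 with the replicate block, 0 by exact permutation (whose smallest p for 3 against 3 libraries is 0.1), and 0 to 2 leaving out 1 library. Resistant against parental under oxamate (3 called): 0 when scaled, 0 by exact permutation, and 0 to 3 leaving out 1 library. Fold, resistant against parental cells (1 called): 0 with quantile normalization, 0 by percentile rank, and 0 to 2 leaving out 1 library. Under oxamate (1 called): 0 by percentile rank and 0 to 2 leaving out 1 library. Regions all or none between groups (1): 0 with -log10 q of at least 3, 3 when at least 50% of a region had to be covered, and 1 to 5 leaving out 1 library. Why these calls moved was not tested.

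Among the libraries left out in turn, treated parental replicate 1 ended every call of a member in covered bases and in fold, and treated resistant replicate 1 all but that of TKTL1 with oxamate in parental cells. The TKT call over both treatments was also lost without replicate 1 or 3 of untreated parental, 3 of treated parental, 1 of untreated resistant or 3 of treated resistant cells, and that of ME1 without any 1 of 9 libraries. TKTL1 was also not called, in either comparison, with -log10 q of at least 3, a pseudocount of 50 bp, no filter or the replicate block. The RPIA fold call was also lost without untreated parental replicate 3, treated parental replicate 2, untreated resistant replicate 1 or 3 or treated resistant replicate 3. The count of regions all or none rose to 5 without treated parental replicate 2 and to 3 without replicate 3.

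The replicate numbers were not taken to pair the libraries. Deviations of same-numbered libraries correlated at -0.152 to 0.194 in covered bases (median -0.016), with 2 of 18 pairs over 0.1. In fold they correlated at -0.189 to 0.315 (median 0.003), also with 2 pairs over 0.1. Libraries of unlike number reached 0.134 in covered bases and 0.223 in fold. The replicate block changed no other count by over 1.5 times. Exact permutation could not be run for the interaction. Depth is known only as a ratio between libraries, so a region missing from a list was not detectable there and is not shown to be closed.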
